A study of Mus musculus with 6 samples.

Results

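Of the 235 mouse promoters in the deposited table, 41 belong to genes that carry a provisional name, with 30 symbols made of Gm and a number and 11 symbols ending in Rik. They were taken by symbol alone, so no measured value entered the choice, and the remaining 194 promoters have other symbols. The libraries are ATAC-seq, an assay that reads open chromatin from where a transposase can insert adapters, from cultured mouse limbs (wild type, strain CD-1) taken 1 day after amputation. One culture was kept at an air-liquid interface (ALI, 3 libraries) and the other in 96-well plates (3 libraries), and 4 limbs of each culture were collected. All 6 libraries shared the genotype, tissue and time, so the culture was the only labelled difference. Nothing in the labels ties the replicates of a culture to separate animals, so p-values reflect only how these libraries vary, and that variation may be technical. In such bulk tissue, fewer cells with an open site and less opening per cell cannot be told apart.

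Symbols of the Gm kind are given to mouse gene models found by annotation of the genome, and Rik symbols to genes known from RIKEN full-length cDNA clones. Both are working names, many of them for long non-coding RNAs. Long non-coding RNAs often start close to a coding gene on the opposite strand, where a shared open region serves both directions, while others start far from any open CpG-rich promoter. CpG-rich DNA is commonly free of methylation and of stable nucleosomes at promoters, and it tends to be open in many tissues.

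The promoter sequences of 6 of these genes show the ends of that range. The first pair below had the highest signal, the next pair had the largest called rise and the largest called fall in ALI after median centring, and the last pair had the lowest signal among the members with a RefSeq promoter entry. Each runs 5′ to 3′ from 250 bases before to 50 bases after the RefSeq start, and CpG dinucleotides are in capitals.
Gm13830, GRCm38.p6 chr5:115300870-115301169, plus strand: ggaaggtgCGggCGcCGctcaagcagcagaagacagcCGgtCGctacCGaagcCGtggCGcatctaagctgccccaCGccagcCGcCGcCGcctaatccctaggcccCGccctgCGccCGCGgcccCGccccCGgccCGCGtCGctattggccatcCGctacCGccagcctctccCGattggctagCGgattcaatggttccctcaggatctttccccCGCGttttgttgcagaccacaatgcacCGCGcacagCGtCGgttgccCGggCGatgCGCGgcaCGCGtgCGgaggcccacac
3110070M22Rik, GRCm38.p6 chr13:119488335-119488634, minus strand: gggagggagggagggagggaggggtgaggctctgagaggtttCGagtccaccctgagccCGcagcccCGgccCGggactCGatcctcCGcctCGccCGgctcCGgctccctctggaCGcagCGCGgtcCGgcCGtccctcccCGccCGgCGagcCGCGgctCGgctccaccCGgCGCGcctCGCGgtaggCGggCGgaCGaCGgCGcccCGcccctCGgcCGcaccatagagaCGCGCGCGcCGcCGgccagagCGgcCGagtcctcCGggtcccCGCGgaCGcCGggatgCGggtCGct
Gm11457, GRCm38.p6 chr2:164763641-164763940, minus strand: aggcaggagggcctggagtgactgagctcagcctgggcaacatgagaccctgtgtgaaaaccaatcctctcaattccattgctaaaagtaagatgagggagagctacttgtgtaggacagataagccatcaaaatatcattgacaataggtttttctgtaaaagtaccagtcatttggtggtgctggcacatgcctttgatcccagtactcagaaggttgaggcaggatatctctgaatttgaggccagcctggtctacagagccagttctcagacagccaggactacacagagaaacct
Gm10804, GRCm38.p6 chr2:93452569-93452868, plus strand: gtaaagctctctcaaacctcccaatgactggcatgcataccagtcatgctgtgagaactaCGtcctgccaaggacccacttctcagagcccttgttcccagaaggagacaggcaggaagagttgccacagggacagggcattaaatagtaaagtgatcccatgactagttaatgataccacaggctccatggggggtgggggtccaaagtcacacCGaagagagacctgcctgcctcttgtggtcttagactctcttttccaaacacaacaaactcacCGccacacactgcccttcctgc
9630028H03Rik, GRCm38.p6 chr2:135583171-135583470, minus strand: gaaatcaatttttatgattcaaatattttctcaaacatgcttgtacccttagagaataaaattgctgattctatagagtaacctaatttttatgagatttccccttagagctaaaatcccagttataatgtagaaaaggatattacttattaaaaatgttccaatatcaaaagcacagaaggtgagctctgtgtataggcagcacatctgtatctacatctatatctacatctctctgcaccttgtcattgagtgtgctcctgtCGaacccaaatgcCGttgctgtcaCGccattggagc
Gm45904, GRCm38.p6 chr8:112922093-112922392, minus strand: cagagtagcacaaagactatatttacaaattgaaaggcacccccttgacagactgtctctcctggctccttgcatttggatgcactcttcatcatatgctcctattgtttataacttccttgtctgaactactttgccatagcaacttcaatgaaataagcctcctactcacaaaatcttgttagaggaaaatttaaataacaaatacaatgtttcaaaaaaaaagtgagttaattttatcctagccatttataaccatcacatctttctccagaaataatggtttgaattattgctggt

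The sequences of Gm13830 and 3110070M22Rik held 38 and 48 CpG dinucleotides in 300 bases, those of 9630028H03Rik and Gm10804 held 3 each, and those of Gm45904 and Gm11457 held 0. RefSeq promoter entries, which hold these sequences, were matched by symbol for 28 of the 41 genes. The deposited table is on GRCm39 per the submitters' processing notes, and whether the RefSeq start is the start used there was not tested. RefSeq lists a second start of Gm11457 that differs in 1 base position and is not printed.

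Values below are signal, the authors' depth-normalized coverage, averaged over the 1000 bp on either side of the transcription start site (TSS) unless a smaller stretch is named. One read adds between 0.0871 and 0.146 to this signal at a base, depending on the library. The median window of the 41 promoters was thus covered by 16.3 to 29.99 reads per base, and that of the remaining promoters by 69.995 to 194.4. ALI replicate 2 and 96-well replicate 3 stood apart from the other libraries. The median signal of the peaked members defined below was 14.5 times that of the members in the lowest quartile in the former and 11.1 times in the latter, against 7.14 to 8.25 in the other 4 libraries. The remaining promoters showed the same order, with 15.7 and 13.4 against 7.45 to 9.31. Of 19 marker genes listed to check the tissue, 7 were in the table, all of them limb genes. By the shape classes and mean signals defined below, Fgf8 (7.17), Dlx5 (10.6) and Msx1 (12.9) were peaked. En1 (9.26) and Sp8 (4.39) were flat, and Sp6 (2.94) and Trp63 (1.81) lay between. The limb mesenchyme genes Prrx1, Twist1 and Lmx1b were absent, as were the markers of blood, muscle, endothelium, cartilage and neural cells, so none of these could be read.

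The provisional names covered nearly the whole range of accessibility, with most windows near the bottom of it. Mean signal over the 6 libraries ran from 0.085 at Gm47957 to 43.6 at Gm13830, with a median of 2.82, against a median of 12.7 and a range of 0.41 to 80.3 for the remaining promoters. By quartiles of the whole table, 24 of the 41 (58.5%) fell in the lowest, 7 in the second, 6 in the third and 4 in the highest, while the remaining promoters had 35 of 194 (18.0%) in the lowest and 55 in the highest. A gap separated 20 windows under 1.92 from 21 windows of 2.82 and over.

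**Figure D1:**
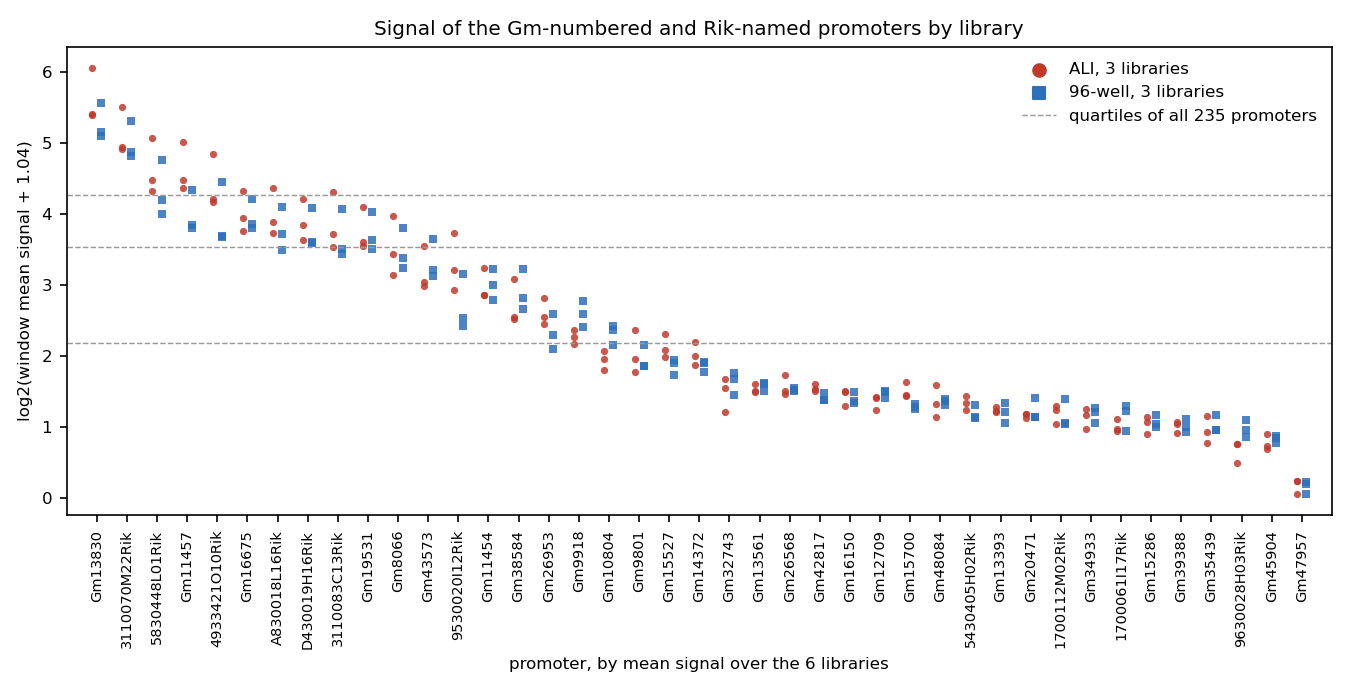
Window mean signal of the 41 promoters, as log2 of signal plus the pseudocount of 1.04, in each ALI (circles) and 96-well (squares) library, ordered by the mean over the 6 libraries. The dashed lines are the quartiles of all 235 promoters, and 24 of the 41 promoters lie under the lowest line.

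The 4 promoters in the highest quartile were all classed by RefSeq as long non-coding RNA genes. Gm13830 (chromosome 5, TSS 115438794) had a signal of 41.4, 65.2 and 41.1 in the ALI libraries and 34.5, 33.1 and 46.4 in the 96-well libraries, which placed it seventh of the 235 promoters. 3110070M22Rik (chromosome 13, TSS 119624954) had 29.1, 44.5 and 29.6 in ALI and 27.0, 28.3 and 38.8 in 96-well culture. In both, ALI replicate 2 and 96-well replicate 3 were the highest of their culture, and the cultures overlapped. 5830448L01Rik (chromosome 14, TSS 34395765) followed with 19.0 to 32.5 in ALI and 15.0 to 26.1 in 96-well libraries. Gm11457 (chromosome 2, TSS 164611587) had 19.5, 31.1 and 21.2 in ALI and 13.0, 13.3 and 19.1 in 96-well libraries, and here every ALI library lay above every 96-well library. The fifth of the order was 4933421O10Rik, with a mean over the 6 libraries of 17.7.

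At the other end, the 5 weakest windows were Gm39388 (0.98), Gm35439 (0.96), 9630028H03Rik (0.74), Gm45904 (0.71) and Gm47957 (0.085). Gm47957 (chromosome 9, TSS 52260668) was listed at 0 over its whole window in ALI replicate 3 and 96-well replicate 3, and at 0.108 to 0.143 in the other 4 libraries. Gm45904 (chromosome 8, TSS 113731630) had 0.63, 0.57 and 0.84 in ALI and 0.67, 0.76 and 0.80 in 96-well libraries. None of these 5 windows was classed as peaked, and their summits, at 0.36 to 2.05, lay between 270 and 990 bp from the TSS. The weak windows differed little between libraries: the 24 in the lowest quartile had medians of 1.30 to 1.57 in ALI and 1.40 to 1.50 in 96-well libraries, and the 35 weakest of the remaining promoters had 1.38 to 1.62 and 1.31 to 1.55.

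The 2 kinds of name were not alike in level. The median was 1.91 over the 30 Gm promoters, 20 of them in the lowest quartile, and 12.9 over the 11 Rik promoters, 4 of them there. RefSeq classed 29 of the 41 as long non-coding RNA, with a median of 2.82, and 10 had no RefSeq symbol, with a median of 1.83. The 2 classed as protein-coding were both open: A830018L16Rik (chromosome 1, TSS 11484330) with 15.2 ± 3.93 (ALI, SD, n = 3) and 12.8 ± 3.01 (96-well), and D430019H16Rik (chromosome 12, TSS 105420116) at 14.1 ± 3.18 and 12.7 ± 2.75. These means lie close to the median of 12.8 over the 184 remaining protein-coding promoters. Just 2 of the remaining promoters were classed as long non-coding RNA, at 1.62 and 2.01, too few to set name against class.

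Open windows among the 41 were often those with a neighbour that starts nearby on the opposite strand. RefSeq places another gene head to head within 1000 bp for 7 of the 28 with an entry: Gm13830 with Dynll1, a dynein light chain, 3110070M22Rik with Tmem267, 4933421O10Rik with Ube2j1, a ubiquitin-conjugating enzyme of the endoplasmic reticulum, Gm16675 with Irf2, an interferon regulatory factor, 3110083C13Rik with Micu2, a regulator of mitochondrial calcium uptake, Gm10804 with the tetraspanin gene Cd82, and 5430405H02Rik with Rab5if. The first 5 had signals between 12.9 and 43.6. Gm10804 (3.39) and 5430405H02Rik (1.37) were in the lowest quartile despite their neighbours. The median was 14.9 over these 7 members and 1.91 over the 21 members without such a neighbour. Among the remaining promoters it was 17.7 over 21 with a head-to-head neighbour and 9.68 over 115 without. Of these 21 members, 5830448L01Rik (21.8) has a RefSeq start of Wapl within 1000 bp that is not head to head. The median was 16.3 over the 8 members with any RefSeq start within 1000 bp. A window of 2000 bp spans both starts of such a pair, so its signal cannot be divided between the genes.

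Peak shape was read from the ratio of the mean signal within 200 bp of the TSS to that in the outermost 200 bp at both ends. A window was called peaked where this ratio was at least 2 in all 6 libraries and flat where it was under 1.5 in all 6, which includes windows lower at the centre than at the ends. By this rule 14 of the 41 (34.1%) were peaked, 15 were flat and 12 lay between, against 128 peaked (66.0%) and 22 flat of the 194 remaining promoters. By level, in the lowest quartile 1 of 24 members and 2 of 35 remaining promoters were peaked. In the second quartile these counts were 4 of 7 (57.1%) and 35 of 52 (67.3%), in the third 5 of 6 (83.3%) and 45 of 52 (86.5%), and in the highest 4 of 4 and 46 of 55 (83.6%). Within each of the first 3 quartiles the shares of peaked windows were somewhat lower among the members, whose numbers are small. Flat windows made up 11 of 24 members and 8 of 35 remaining promoters in the lowest quartile, 3 of 7 and 5 of 52 in the second, 1 of 6 and 2 of 52 in the third, and 0 of 4 and 7 of 55 in the highest.

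**Figure D2:**
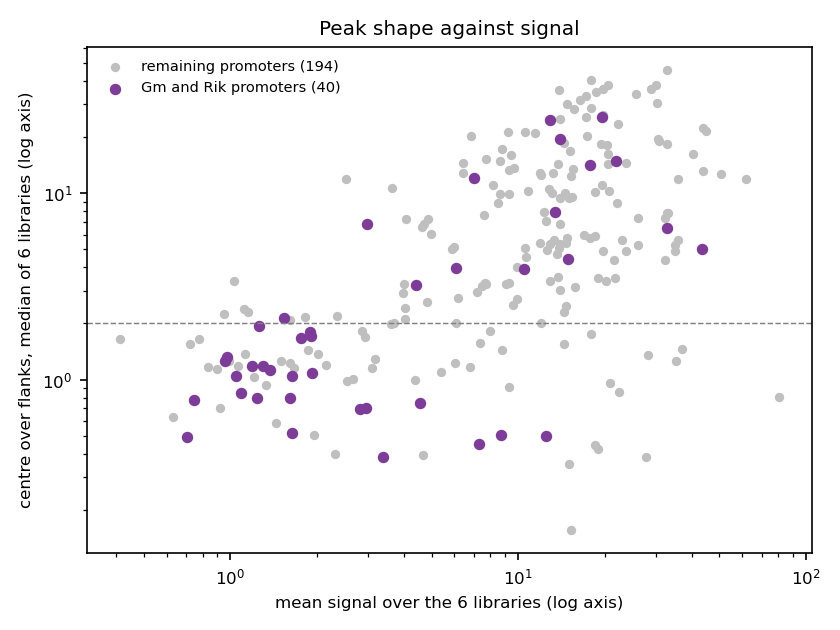
Ratio of the central 400 bp to the window's ends (median of the 6 libraries) against mean signal, both on log axes, for 40 of the 41 promoters (purple) and the 194 remaining promoters (grey). The dashed line marks a ratio of 2. Gm47957, whose ratio is undefined in the libraries listed at 0, is not drawn.

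The sharpest of the 14 peaked members was Gm11457, with ratios of 27.8, 35.3 and 35.2 in ALI and 20.2, 19.0 and 23.8 in 96-well libraries. 3110083C13Rik, which starts head to head with Micu2, had ratios from 15.7 to 36.3, and A830018L16Rik from 16.3 to 24.1. The lowest medians were those of Gm9918 (3.23), Gm8066 (3.93) and Gm38584 (3.96). Gm9801 was the peaked member of the lowest quartile: its window mean was 2.98, but a narrow peak stood at the TSS, 140 bp wide where its signal was above 0.5 of the summit, with a ratio of 5.28 to 9.53. The median ratio over the 14 was 7.37, against 10.04 over the 128 peaked remaining promoters, and the median width at that height was 300 bp against 360 bp. The summit lay within 200 bp of the TSS in 12 of 14 and in 114 of 128. The exceptions were 4933421O10Rik, at 210 bp downstream, and Gm13830, at 430 bp downstream. The mean profile of the 14 had its highest bin at −50 bp in ALI (50.1 ± 14.8, SD, n = 3) and at −10 bp in 96-well libraries (38.7 ± 9.85). It carried a shoulder downstream of the TSS.

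**Figure D3:**
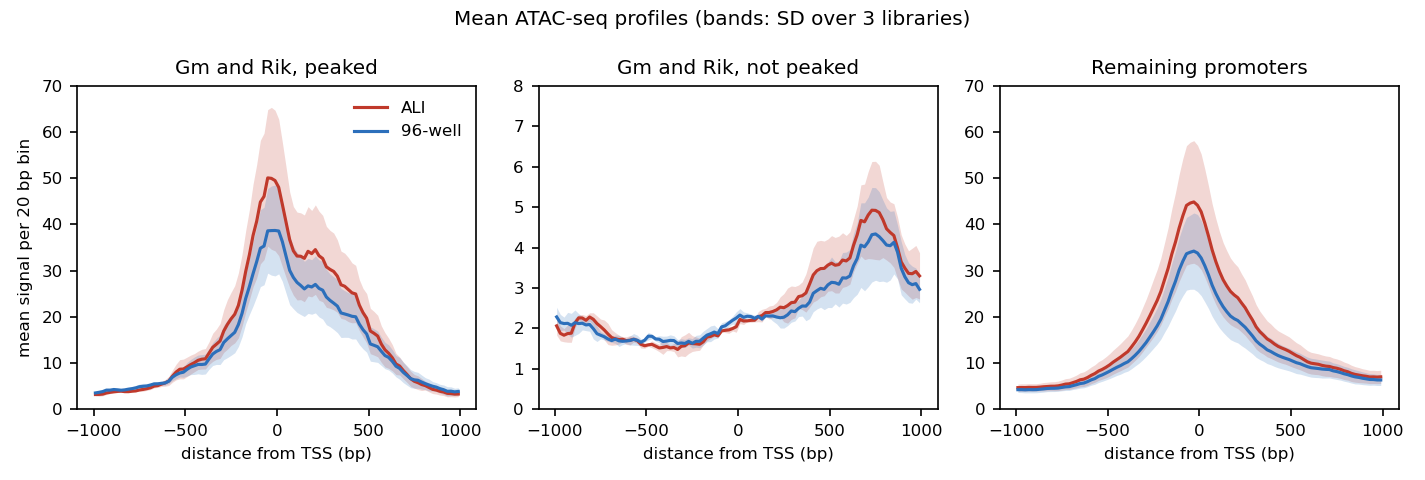
Mean signal in bins of 20 bp against distance from the TSS for the 14 peaked members, the 27 members that were not peaked (drawn on a smaller vertical scale) and the 194 remaining promoters. Lines are means of 3 libraries and bands their SD. The members that were not peaked show no maximum at the TSS, and their highest bin lies 730 bp downstream in ALI (4.92) and 750 bp downstream in 96-well culture (4.34). These 27 include Gm19531, 9530020I12Rik and Gm43573, with summits of 43.3, 28.9 and 26.1 at 790, 770 and 970 bp downstream, which weigh on that mean.

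Several windows were accessible away from the annotated start. The summit lay over 300 bp from the TSS in 20 of the 41 (48.8%) and in 43 of the 194 remaining promoters (22.2%). In 12 of the 20 the summit was weak, at 0.36 to 3.10, and its place carries little information. In the other 8 it was between 6.07 and 161. Gm19531 (chromosome 9, TSS 75222190) had its summit 790 bp downstream, at 34.0, 57.5 and 38.4 in ALI and 31.9, 41.8 and 56.1 in 96-well libraries, while the bins next to its TSS averaged 9.49. 9530020I12Rik (chromosome 12, TSS 11272419) peaked 770 bp downstream, and Gm43573 (chromosome 3, TSS 148692187) rose towards 970 bp downstream. Upstream summits were those of Gm26953 at −810 bp, Gm14372 at −890 bp, Gm15527 at −550 bp and Gm10804 at −990 bp, the edge of the window. With Gm13830 these make the 8, and none of the other 7 was peaked. Their window means include an open site away from the annotated start, and so do not describe the start alone.

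**Figure D4:**
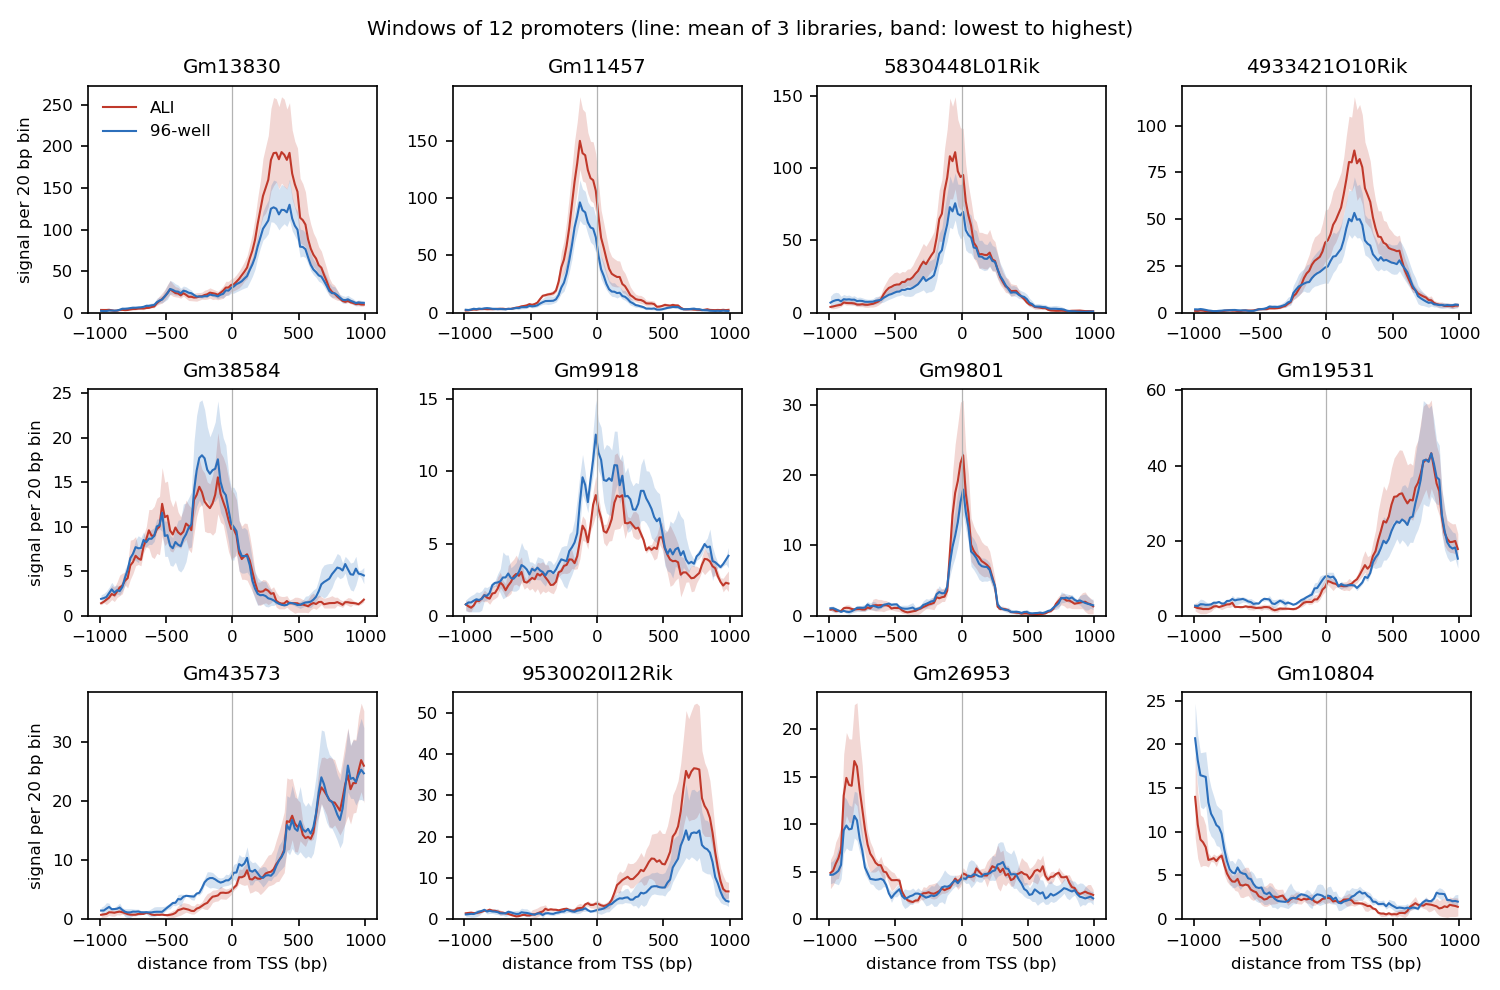
Signal in bins of 20 bp against distance from the TSS in 12 of the 41 windows, chosen after their values were seen. Lines are the means of the 3 ALI (red) and 3 96-well (blue) libraries, bands run from the lowest to the highest library, and the vertical line marks the TSS. The first 7 windows have a peak near the TSS or within 430 bp of it, and the last 5 are most open at 770 bp or more from it.

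In the RefSeq promoter sequences, openness went with CpG content. CpG frequency was scored as the observed number over that expected from the C and G counts. Over the 25 genes with a single entry, Spearman's rho between this score and mean signal was 0.63, a description over genes that share the same libraries, against 0.45 over 108 remaining promoters. The members had 31 sequences, since RefSeq lists 2 starts each for Gm11457, Gm35439 and Gm39388. A score over 0.6 was found in 5 of 12 sequences of peaked members, 1 of 19 of the others (5430405H02Rik), 61.8% of the 173 sequences of the remaining promoters and 35.8% of all 32851 RefSeq promoters. Among the open members, Gm11457 had a score of 0 and Gm38584 one of 0.25. Motifs were searched on both strands of these sequences. The GC box GGGCGG, bound by Sp factors, was present in 7 of 12 sequences of peaked members and 2 of 19 of the others, against 57.8% of the remaining and 35.7% of all RefSeq promoters. The TATA box letters TATAAA were in 0 of 12 and 4 of 19, against 13.6% of all. The CCAAT box CCAAT was in 4 of 12 and 8 of 19, against 37.4% of all. The ETS letters CCGGAAG were in 3 of 12 (5830448L01Rik, Gm11454 and Gm9918) and 1 of 19, and the E-box CACGTG in 2 of 12 and 1 of 19, against 8.86% and 7.15% of all. The palindromic NRF1 motif and the CRE letters TGACGTCA were in 0 of 31, against 0.97% and 1.79% of all. GGGCGG contains no other of these motifs.

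On the deposited values, no promoter passed the test between cultures. Over all promoters limma called 0 of 235 (0%; lowest Benjamini-Hochberg adjusted p = 0.40), with 7 promoters, 3 of them among the 41, at an unadjusted p under 0.05. The 41 had a median change of 0.03 (log2 of signal plus pseudocount, ALI minus 96-well) against 0.16 for the remaining promoters, and 24 of 41 were positive. These medians were 0.007 and 0.017 without ALI replicate 2, 0.05 and 0.31 without 96-well replicate 3, and −0.003 and 0.087 without 96-well replicate 1. Groups did not overlap in 7 of the 41, beside 5.96% of the whole table. Gm11457 (0.62 ± 0.33, SE), Gm15527 (0.27 ± 0.15), Gm15700 (0.21 ± 0.12) and Gm42817 (0.14 ± 0.12) were higher in every ALI library. Gm10804 (−0.38 ± 0.16), Gm9918 (−0.33 ± 0.18) and 9630028H03Rik (−0.30 ± 0.09, which had the lowest adjusted p of the table) were higher in every 96-well library. Gm15700, Gm42817 and 9630028H03Rik were windows under 2, and the window of 9630028H03Rik lay below the pseudocount in 5 of the 6 libraries, so their changes rest on low coverage.

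Libraries differed in level more at open windows than at weak ones. Their medians ran from 11.5 to 21.8 over the 128 peaked remaining promoters. Over the 35 remaining promoters in the lowest quartile they ran from 1.31 to 1.62. The test was repeated after median centring, which shifts every library so that its median promoter deviates by 0 from the mean of the 6 libraries. Limma then called 7 of the 41 (beside 21.7% of the whole table): 3 higher in ALI (Gm11457, 9530020I12Rik and 4933421O10Rik, beside 11.5% of all) and 4 lower (Gm10804, Gm9918, Gm38584 and Gm43573, beside 10.2%). All are long non-coding RNA genes in RefSeq except Gm43573, which has no RefSeq symbol. The share called, 17.1%, was near that of the table. Non-overlapping groups were found in 10 of the 41, beside 39.1%. The median centred change was −0.14 over the 41 and −0.005 over the remaining promoters, with 10 of 41 positive. Without ALI replicate 2 these medians were 0.0014 and 0.011, with 21 of 41 positive, and without 96-well replicate 3 they were −0.24 and 0.02, with 9 positive, so the size of this difference rests on single libraries. Centring lowered the change of every promoter by the same amount. This included the 24 members in the lowest quartile, whose deposited library medians averaged 1.46 in ALI and 1.45 in 96-well culture. The shift moved the median change of all 235 promoters from 0.14 to −0.03 and the positive members from 24 to 10. On this scale a change is relative to the median promoter. Other scalings of the same values called 6 members after quantile normalization (beside 16.2% of the table), 6 after equal flanks (beside 31.1%) and 9 after cyclic loess (beside 26%), of which 4, 6 and 5 were among these 7. Of the whole table, 27 calls were higher in ALI and 24 lower after centring, and 58 were higher and 15 lower after equal flanks, while the members called were 3 higher and 3 lower with equal flanks. All 7 calls ended when the mean-variance trend was left out of the limma fit (lowest adjusted p among them 0.060). Without ALI replicate 2 and 96-well replicate 3, the libraries of high contrast between open and closed windows, limma called 10 members after centring (beside 33.2% of the table), which included these 7, and 7 on the deposited values (beside 33.6%), of which 4 were among them (4933421O10Rik, 9530020I12Rik, Gm10804 and Gm11457).

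**Figure D5:**
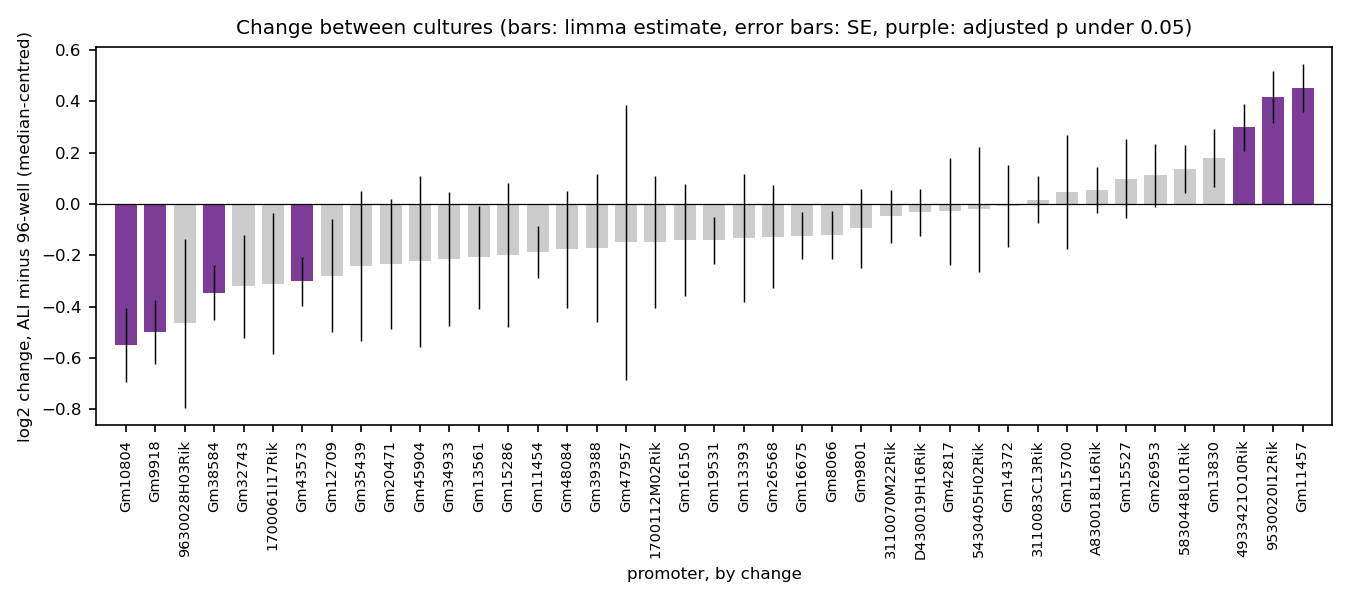
Median-centred log2 change of signal plus pseudocount, ALI minus 96-well, for each of the 41 promoters in order of change. Bars are limma estimates, error bars their SE, and purple bars the 7 promoters with an adjusted p under 0.05, of which 3 are above 0 and 4 below.

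The increases in ALI lay at peaks. Here and for the decreases below, changes are after centring unless another scaling is named. Signals of windows, summits and stretches are deposited values. The Gm11457 window changed by 0.45 ± 0.09 (SE; limma, Benjamini-Hochberg adjusted p = 0.00014), and its summit at −130 bp stood at 124.8, 188.2 and 136.3 in ALI and 80.4, 92.4 and 115.6 in 96-well libraries. The call held in 15 of 16 alternatives, with changes from 0.34 to 0.52. 4933421O10Rik, which shares its window with Ube2j1, changed by 0.30 ± 0.09 (limma adjusted p = 0.0095) and was called in 11 of 16 alternatives. It lost the call after quantile normalization (0.19, adjusted p = 0.15), with a pseudocount 5 times larger (0.25, adjusted p = 0.052) and without 96-well replicate 1 (0.24, adjusted p = 0.18) or 96-well replicate 2 (0.23, adjusted p = 0.18). Its window had 17.0, 27.7 and 17.4 in ALI and 11.8, 11.9 and 20.8 in 96-well libraries, so the cultures overlapped. 9530020I12Rik changed by 0.42 ± 0.10 (limma adjusted p = 0.0017), and its windows had 6.59, 12.2 and 8.25 in ALI and 4.34, 4.77 and 7.85 in 96-well libraries. Its summit lay 770 bp downstream of the TSS. From 600 to 900 bp downstream, ALI libraries had 29.4 ± 10.6 (SD, n = 3) and 96-well libraries 17.9 ± 7.27. In its central 400 bp the change was 0.20 (limma adjusted p = 0.57). Whether the centre and the downstream site differ in their change was not tested, and the cultures overlapped in both the window and that stretch.

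The decreases in ALI differed in where they lay. Gm9918 (chromosome 15, TSS 102178999) had 3.45, 4.12 and 3.76 in ALI and 4.28, 5.02 and 5.81 in 96-well libraries. After centring it changed by −0.50 ± 0.12 (SE; limma adjusted p = 0.0019), and the call held in 15 of 16 alternatives. Its central 400 bp changed by −0.69 (limma adjusted p = 0.00038). The Gm10804 window (chromosome 2, TSS 93283134) had 2.43, 3.14 and 2.84 in ALI and 3.43, 4.13 and 4.35 in 96-well libraries, and changed by −0.55 ± 0.14 (limma adjusted p = 0.0027). Its summit lay at −990 bp. From 1000 to 800 bp upstream, ALI libraries had 8.52 ± 1.65 (SD, n = 3) and 96-well libraries 14.6 ± 2.84, with no overlap. The 500 bp downstream of its TSS had 1.54, 1.58 and 1.63 in ALI and 2.61, 2.09 and 2.09 in 96-well libraries. There too the cultures did not overlap, while in the 500 bp upstream they did. In its central 400 bp the change was −0.34 (limma adjusted p = 0.38), and without 96-well replicate 2 the window lost the call (−0.47, adjusted p = 0.067).

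Gm38584 (chromosome 7, TSS 69142860) changed by −0.34 ± 0.11 (SE; limma adjusted p = 0.010). Its central 400 bp changed by −0.38 (limma adjusted p = 0.040), and its profile also differed further downstream. From 600 to 1000 bp downstream the signal was 1.14, 1.99 and 1.24 in ALI and 3.76, 3.87 and 5.47 in 96-well libraries, while the 400 bp upstream of the TSS had 12.1 ± 2.92 (SD, n = 3) and 13.9 ± 4.34. Every 96-well library was above every ALI library in the former stretch, and the cultures overlapped in the latter. These stretches were chosen after the profiles were seen and carry no test. Gm43573 changed by −0.30 ± 0.10 (limma adjusted p = 0.012), and its central 400 bp by −0.67 (limma adjusted p = 0.0012). The 500 bp upstream of its TSS had 4.97, 4.43 and 5.29 in 96-well libraries and 1.81, 3.33 and 2.43 in ALI. Its strong site 600 to 1000 bp downstream was level on the deposited values, at 21.4 ± 6.20 in 96-well libraries and 21.5 ± 5.79 in ALI. On those values its window changed by −0.13 (limma adjusted p = 0.87). Gm38584 and Gm43573 were each called in 10 of 16 alternatives, and both lost the call after quantile normalization (adjusted p = 0.15 and 0.16), after cyclic loess (adjusted p = 0.15 and 0.062), without ALI replicate 3 (adjusted p = 0.089 and 0.12) and without 96-well replicate 1 (adjusted p = 0.083 for each). Gm38584 also lost it without 96-well replicate 3 (adjusted p = 0.050), and Gm43573 after equal flanks (−0.23, adjusted p = 0.063).

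The height of a peak over its own flanks needs no scaling between libraries, and its log2 ratio was tested for every promoter. Limma called 0 of the 41 (beside 1.28% of the table, 3 promoters), with a lowest adjusted p of 0.13 and 9 at an unadjusted p under 0.05. Groups did not overlap in 9 of the 41, 6 of them higher in ALI, beside 28.5% of the table. Among the peaked windows with no overlap were 5830448L01Rik (0.74 ± 0.25, SE), 4933421O10Rik (0.72 ± 0.25), Gm11457 (0.64 ± 0.26) and Gm38584 (0.58 ± 0.22). In Gm38584 the central 400 bp changed by −0.14 on the deposited values (limma adjusted p = 0.86), so its centre was not higher in ALI. Its signal 600 to 1000 bp downstream was 1.45 ± 0.46 (SD, n = 3) in ALI against 4.37 ± 0.96 in 96-well libraries. The peaked window of Gm8066 differed by 0.60 ± 0.26, and its groups overlapped. For 5830448L01Rik the ratio was 17.6, 23.1 and 21.0 in ALI and 11.9, 12.4 and 10.5 in 96-well libraries. The ratio of the summed centre to the summed flanks over the 14 peaked members was 9.23 to 12.4 in ALI and 6.67 to 8.16 in 96-well libraries, and over the 128 peaked remaining promoters 9.76 to 13.0 and 7.74 to 8.72, so both sets had their ALI libraries above their 96-well libraries. Over the 27 members that were not peaked it was 0.63 to 0.77 and 0.66 to 0.85.

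The balance between the sides of the TSS was tested as log2 of the 500 bp upstream over the 500 bp downstream. Limma called 0 of the 41 and 0 of the table (0%), with a lowest adjusted p of 0.061 in both and 8 of the 41 at an unadjusted p under 0.05. Groups did not overlap in 7 of the 41, beside 31.1%. Gm19531 had upstream over downstream ratios of 0.21, 0.20 and 0.26 in ALI and 0.49, 0.39 and 0.36 in 96-well libraries (log2 change −0.73 ± 0.15, SE). Its upstream stretch was lower in every ALI library, at 3.03 ± 0.45 (SD, n = 3) against 4.92 ± 0.46, and its downstream stretch overlapped between cultures. Gm43573 shifted the same way (−0.68 ± 0.16), as did Gm13830 (−0.51 ± 0.12), whose ratio was 0.21, 0.18 and 0.17 in ALI and 0.27, 0.27 and 0.26 in 96-well libraries. In 5830448L01Rik the ratio was 1.39, 1.52 and 1.59 in ALI and 1.07, 1.07 and 1.18 in 96-well libraries (0.43 ± 0.09). Gm13561 shifted upstream as well (0.38 ± 0.09). None of these 5 passed the threshold (limma adjusted p = 0.061 for each). With the windows under the lowest quartile of signal left out of the fit, Gm19531, 5830448L01Rik, Gm43573 and Gm13830 were called, 4 of the 17 members left (limma adjusted p = 0.020, 0.020, 0.025 and 0.032), beside 14.2% of the 176 promoters left. The other non-overlapping members were 4933421O10Rik (−0.36) and 3110070M22Rik (0.20).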

How the data were processed

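The 3 ALI and 3 96-well libraries of cultured limbs were compared. The deposited values are signal, that is coverage normalized to depth by the authors, per the file headers, as deepTools means in 20 bp bins over 100 bins per library. The formula is not stated. The genome was GRCm39 and the tools deepTools 3.5.1, Picard, Bowtie2 2.5.1, Trim Galore 0.6.10 and SAMtools 1.16.1, per the submitters' processing notes. For the Tn5 offset and duplicate removal, the sources used here give no setting, and a missing offset would move profiles by less than 1 bin.

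Window and region means were computed in Python 3.11.15 and tested as log2(signal + 1.04), the pseudocount being 0.1 of the median window mean, with limma 3.58.1 in R 4.3.3 (lmFit, eBayes with trend) over all 235 promoters and 6 libraries, Benjamini-Hochberg adjusted, threshold 0.05. The pseudocount understates changes of weak windows. The fits were tested on simulated data. Total depth is unknown, so precision comes from the spread between libraries, and no count test was run. For window means, deposited or centred, limma's prior degrees of freedom were infinite, so the trend alone set each variance.

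Named members were those called in any fit, the 5 highest and lowest, those with non-overlapping groups, far summits, coding class or head-to-head neighbours. Neighbours, classes and sequences are from RefSeq on GRCm38.p6. Alternatives were other scalings, pseudocounts, regions, a low-signal filter, no trend, a replicate block and each library left out. The members and lists were chosen with earlier results of these data known.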

Additional observations from a re-analysis of the deposited data

How the results depend on the processing

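Scaling decided the number of calls. On the deposited values limma called 0 promoters and 0 members with all 6 libraries, with each library left out (0 to 0), with the replicate block, the other pseudocounts, the filter, the central 400 bp and without trend. Quantile normalization called 38 promoters and 6 members, equal flanks 73 and 6, and cyclic loess 61 and 9, of which 4, 6 and 5 members were among the 7 called after centring. Leaving out ALI replicate 2 and 96-well replicate 3, chosen after seeing the data, called 79 and 7 on the deposited values and 78 promoters after centring. After centring, 51 promoters and 7 members were called, against 89 promoters without the low windows (those under the lowest quartile of mean signal) and 0 and 0 without trend. With 1 library left out the calls ranged from 22 (without 96-well replicate 1) to 58 promoters (without 96-well replicate 3) and from 4 to 7 members.

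For centre over flanks, 3 promoters and 0 members were called. The pseudocount 5 times smaller, the replicate block and the narrower regions gave 0 promoters, the pseudocount 5 times larger 6 and 1 member, eBayes without trend 6, and the added pair left out 13 and 1 member. With 1 library left out the counts ranged from 0 to 22 promoters and 0 to 2 members; members were called without ALI replicate 1 (2), 96-well replicate 1 (1) and 96-well replicate 3 (1). For upstream over downstream, 0 were called, against 14 promoters and 2 members with the larger pseudocount and 25 and 4 without the low windows.

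The median change of the members moved without the low windows, to 0.13 on the deposited values and 0.25 for centre over flanks, and from −0.06 to 0.034 for upstream over downstream with the added pair left out. That filter drops 24 of the members. The centred change of Gm13830 (0.18, not called) was −0.0016 in the central 400 bp, −0.065 after quantile normalization and −0.086 after cyclic loess; the cause was not tested. The mean member signal was 7.07, against the median of 2.82. The 7 changes called after centring kept their direction under each alternative of that fit. With the replicate block the centred fit called 39 promoters and the same 7 members. Same-numbered libraries did not deviate together throughout (correlations across promoters 0.67, −0.61 and −0.60). The strongest correlation between libraries of different cultures, 0.81, was that of the libraries of high contrast. That contrast can hide a pairing, so these values cannot decide whether the numbers pair the libraries.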

Other observations

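The gene 5430405H02Rik combined a CpG-rich RefSeq promoter with a closed window. Its RefSeq sequence held 42 CpG dinucleotides, with a score of 1.07, and RefSeq places Rab5if head to head with it. The window at its listed TSS (chromosome 2, TSS 156714311) had a signal of 1.67, 1.33 and 1.49 in ALI and 1.17, 1.44 and 1.15 in 96-well libraries, with a centre over flanks ratio of 0.96 to 1.32. Whether the 2 annotations place its start at the same base was not tested.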
